A study of Mus musculus with 2 samples.

Results

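The genes described here encode the SR proteins and the hnRNPs, which are among the most abundant regulators of pre-mRNA splicing. Members were the genes of the deposited count table whose Ensembl identifier maps to a mouse symbol of the form Srsf with a number or to a symbol starting with Hnrnp, with at least 20 counts over both libraries. Names marked as pseudogenes were left out. There were 31 members, 11 SR genes and 20 hnRNP genes, among 19202 genes in the table and 14004 genes that reached 20 counts. No member fell under that minimum. The member nearest to it was Srsf12 with 261 counts, and the only name left out, Hnrnpa1l2-ps2, had 19.

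RNA sequencing compared telencephalic tissue of C57BL/6 background mouse embryos at embryonic day 12 between H2AZcKO, a conditional knockout of the histone variant H2A.Z, and its floxed control H2AZfl/fl. Such a knockout is made by Cre, which deletes an allele flanked by loxP sites, and the control name says that it carries that floxed allele. The sources used here do not name the Cre driver, so which cells lost the gene is unknown. The series text speaks of sequencing in triplicate, but the deposited data hold 1 count column per genotype, called a library below. Whether a column pools or sums replicates or is a single one is unknown, as is the number of embryos behind it, so no difference has a replicate check and no test of the genotype could be run. Each ratio is H2AZcKO over H2AZfl/fl in CPM (counts scaled to a common library size) after TMM scaling, with an exact 95% binomial (Clopper-Pearson) interval from the counts. Gene coordinates are those deposited with the counts, which match the build GRCm38. The intervals cover counting error only: the reads carry no molecular identifiers, so reads of the same molecule can be counted repeatedly.

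The libraries held 8839840 counts (H2AZcKO) and 8891198 counts (H2AZfl/fl). The targeted gene H2afz stood at 191 CPM in the H2AZcKO library against 289 CPM in the H2AZfl/fl library, a ratio of 0.661 (0.621 to 0.703), over the whole gene and not over its deleted part alone. All 10 telencephalic marker genes were detected, with a summed level of 3140 CPM in H2AZcKO and 2898 CPM in H2AZfl/fl, while the protocol speaks of cerebral cortex and the tissue label of telencephalon. Xist stood at 732 CPM in H2AZcKO against 22.2 CPM in H2AZfl/fl, and the Y-linked Kdm5d had 5 against 647 counts, so sex and genotype cannot be told apart in any value below. Mitochondrially encoded genes took 3.01% of counts in H2AZcKO against 2.64% in H2AZfl/fl.

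SR proteins carry RNA recognition motifs and a tail rich in arginine and serine repeats. They bind enhancers within exons, help the spliceosome to recognise the exon, and depend on phosphorylation of the tail by SRPK and CLK kinases. The hnRNPs are a broader set of nuclear RNA-binding proteins that coat nascent transcripts, and several of them, hnRNP A1 among them, silence exons that SR proteins enhance. Many genes of both classes limit their own expression through alternative exons or retained introns that send the transcript to nonsense-mediated decay. In the developing brain the balance of such regulators changes as progenitors become neurons.

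SR and hnRNP transcripts were slightly more abundant in the H2AZcKO library, by a few percent for most genes and by about 1.2-fold at most. Of the 31 members 28 had a ratio above 1, 9 of the 11 SR genes and 19 of the 20 hnRNP genes, against 51.2% of all genes tested, and 3 had a ratio below 1 (Srsf4, Srsf12 and Hnrnph3), against 48.8%. The median log2(CPM + 1) ratio was 0.08 for SR genes and 0.09 for hnRNP genes, a difference of -0.00632, and was 0.00672 over all genes tested. The classes therefore had almost the same median, and each class spread more widely than the distance between them. The ratios of SR genes ran from 0.880 to 1.21 and those of hnRNP genes from 0.912 to 1.22. Summed over genes, the SR class took 0.329% of counts in H2AZcKO (0.326 to 0.333) against 0.313% in H2AZfl/fl (0.309 to 0.316). The hnRNP class took 1.25% in H2AZcKO (1.25 to 1.26) against 1.19% in H2AZfl/fl (1.18 to 1.195). After TMM scaling both sums gave a ratio of 1.08.

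Few members passed the 1.2-fold size on the log2(CPM + 1) scale. Higher by 1.2-fold were 1 SR gene, Srsf2, and 2 hnRNP genes, Hnrnpa0 and Hnrnpab, against 10.6% of all genes, and no member was lower by 1.2-fold, against 12.3% of all genes. Read against all genes, 3 of 31 is a share near the background. Low counts widen the ratios of most genes, so the 4676 genes with at least 1000 summed counts, a subset chosen after the values were seen, are the closer match in depth: 4.11% of them were 1.2-fold higher and 3.1% lower. All members except Srsf4 and Srsf12 belong to that subset. Against it the share of members that were 1.2-fold higher was larger, but it rests on 3 genes at the threshold. No member passed 1.5-fold, which 1.54% of all genes did in the higher and 2.45% in the lower direction. In the deeper subset these shares were 0.15% and 0.0428%.

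The counting interval lay wholly above 1 for 20 members, 6 SR and 14 hnRNP genes, and wholly below 1 for 1 member, Hnrnph3. Over all genes these shares were 12.9% and 11.3%, and over genes with at least 1000 counts 24.3% and 15.3%. An interval narrows with depth, and the members were deeper than both backgrounds, with a median of 6295 summed counts against 548 over all genes and 1912 in the deeper subset. The share of ratios above 1 depends less on depth and was 57.1% in the deeper subset, where 42.9% lay below 1.

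The size of the shift depended on how the libraries were scaled. With DESeq2 size factors 26 members were above 0 on the log2 scale and with scaling by total count 23, and intervals above 1 numbered 17 and 12. Hnrnpd, Hnrnpr, Hnrnph2, Srsf6 and Srsf10 changed from just above to just below 0 under total count scaling. Of the genes past 1.2-fold in the whole table, 46.2% were higher with TMM against 39.9% with DESeq2 factors and 35.4% with total counts, so the split itself moves with the scaling. The class medians stayed above that of all genes under each scaling, at 0.04 for SR genes, 0.05 for hnRNP genes and -0.03 for all genes with total counts.

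**Figure D1:**
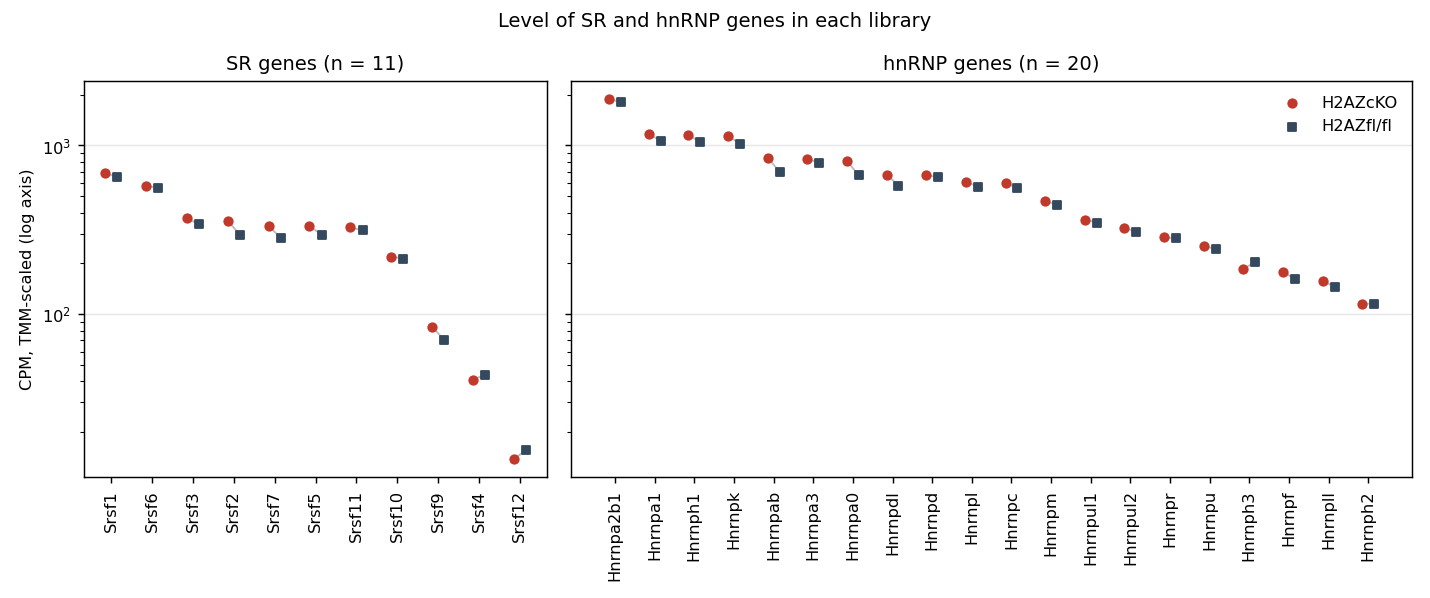
Level of each SR gene (left) and hnRNP gene (right) in CPM on a log axis, with a circle for the H2AZcKO library and a square for the H2AZfl/fl library. The genes span from 13.8 CPM (Srsf12) to 1884 CPM (Hnrnpa2b1) in H2AZcKO, and for most genes the circle sits slightly above the square.

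The members with the highest ratios were Hnrnpa0, Hnrnpab and Srsf2, and the 150 bases of their promoters upstream of the RefSeq transcription start are shown because they are the genes past 1.2-fold. Capitals mark matches on either strand to the GC box GGGCGG, to the CCAAT box, and to the TATA box TATAAA, so a match on the other strand appears as its reverse complement. All 3 genes lie on the minus strand, and each sequence is written 5′ to 3′ along the gene, from RefSeq on GRCm38.p6. The windows are chr13:58128557-58128706 for Hnrnpa0, chr11:51606882-51607031 for Hnrnpab and chr11:116853095-116853244 for Srsf2. The RefSeq start of Hnrnpab lies 34 bases upstream of the deposited one.
Hnrnpa0: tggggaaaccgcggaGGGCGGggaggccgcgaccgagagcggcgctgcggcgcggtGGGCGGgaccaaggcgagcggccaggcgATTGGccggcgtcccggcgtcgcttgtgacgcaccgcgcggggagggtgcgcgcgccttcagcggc
Hnrnpab: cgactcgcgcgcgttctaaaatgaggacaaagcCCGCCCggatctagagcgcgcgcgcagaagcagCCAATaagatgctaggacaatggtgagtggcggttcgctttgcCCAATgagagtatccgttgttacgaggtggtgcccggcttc
Srsf2: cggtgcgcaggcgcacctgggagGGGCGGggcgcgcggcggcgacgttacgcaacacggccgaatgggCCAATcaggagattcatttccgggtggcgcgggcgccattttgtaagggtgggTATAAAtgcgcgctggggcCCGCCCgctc
All 3 windows hold a GC box and a CCAAT box. The CCAAT match nearest to the start begins at -66 in Hnrnpa0, -41 in Hnrnpab and -82 in Srsf2, and Srsf2 alone of the 3 has a TATA match, at -29. The windows differ in composition, with 79.3% G or C in Hnrnpa0, 58% in Hnrnpab and 69.3% in Srsf2.

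Among the SR genes, Srsf2, Srsf9, Srsf7 and Srsf5 stood highest relative to the control. SRSF2, also known as SC35, recognises both C-rich and G-rich exonic enhancers and also acts in the release of paused RNA polymerase II. Srsf2 (ENSMUSG00000034120, chr11:116849901-116853094) was at 357 CPM in H2AZcKO against 296 CPM in H2AZfl/fl, a ratio of 1.21 (1.15 to 1.27). It overlaps Mettl23 (222 counts in H2AZcKO, 210 in H2AZfl/fl) and Mfsd11 (223 counts in H2AZcKO, 235 in H2AZfl/fl) on the opposite strand, and use of strand in counting was not given in the sources used here. Srsf2 itself had 3116 counts (H2AZcKO) and 2667 counts (H2AZfl/fl), and the part of reads of either neighbour in its count was not tested.

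SRSF1 is the prototype of the family and SRSF9 its close relative, and of their genes Srsf9 had the higher ratio. Srsf9 (chr5:115327177-115333080) was at 84.4 CPM in H2AZcKO against 70.3 CPM in H2AZfl/fl, a ratio of 1.201 (1.079 to 1.338). This ratio lies at the 1.2-fold size, and Srsf9 is not counted as past it because the added 1 CPM draws its log2 ratio to 0.26. Srsf1 (chr11:88047373-88053755), the SR gene with the highest CPM, was at 686 CPM in H2AZcKO against 649 CPM in H2AZfl/fl, a ratio of 1.06 (1.02 to 1.096). The ratio of Srsf9 was 1.14 times that of Srsf1, with an interval of 1.02 to 1.27 from the 4 counts.

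SRSF3 and SRSF7 shuttle between nucleus and cytoplasm and act as adaptors for mRNA export as well as in splicing. Srsf7 (chr17:80200089-80207305) was at 334 CPM in H2AZcKO against 283 CPM in H2AZfl/fl, a ratio of 1.18 (1.12 to 1.25). Srsf3 (chr17:29032673-29043366) was at 370 CPM in H2AZcKO against 340 CPM in H2AZfl/fl, a ratio of 1.09 (1.03 to 1.14). Both were higher in H2AZcKO, Srsf7 by slightly more, with 1.09 (1.01 to 1.17) between the ratios.

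SRSF4, SRSF5 and SRSF6 form a subfamily with a pair of RNA recognition motifs, and their genes lay on different sides of 1. Srsf5 (chr12:80945504-80950507) was at 333 CPM in H2AZcKO against 296 CPM in H2AZfl/fl, a ratio of 1.12 (1.07 to 1.18). Srsf6 (chr2:162931528-162937121) was at 575 CPM in H2AZcKO against 561 CPM in H2AZfl/fl, a ratio of 1.02 (0.985 to 1.07). Srsf4 (chr4:131873617-131901706) was at 40.8 CPM in H2AZcKO against 43.7 CPM in H2AZfl/fl, a ratio of 0.935 (0.808 to 1.08). Srsf5 thus stood apart from both relatives, at 1.097 times the ratio of Srsf6 (1.03 to 1.17) and 1.202 times that of Srsf4 (1.03 to 1.4003). The intervals of Srsf4 and Srsf6 overlapped.

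For the remaining SR genes the counting interval held 1. SRSF10 is an SR protein that turns into a splicing repressor when it loses its phosphates, and Srsf10 was at 219 CPM in H2AZcKO against 213 CPM in H2AZfl/fl, a ratio of 1.02 (0.960 to 1.09). SRSF11 takes part in the inclusion of neuronal microexons, and Srsf11 was at 327 CPM in H2AZcKO against 314 CPM in H2AZfl/fl, a ratio of 1.04 (0.986 to 1.095). Srsf12, which encodes a relative of SRSF10, was the least abundant member with 120 counts (13.8 CPM) in H2AZcKO against 141 counts (15.6 CPM) in H2AZfl/fl. Its ratio of 0.880 had the widest interval of all members, from 0.684 to 1.13, so a difference of this size was not detectable at its depth. Leaving out Srsf4 and Srsf12, the shallowest SR genes, left the number of SR genes past 1.2-fold at 1. It put the median log2 ratio of SR genes at 0.12 in place of 0.08, and the difference of SR minus hnRNP medians at 0.03 in place of -0.00632, so which class has the higher median rests on these genes.

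**Figure D2:**
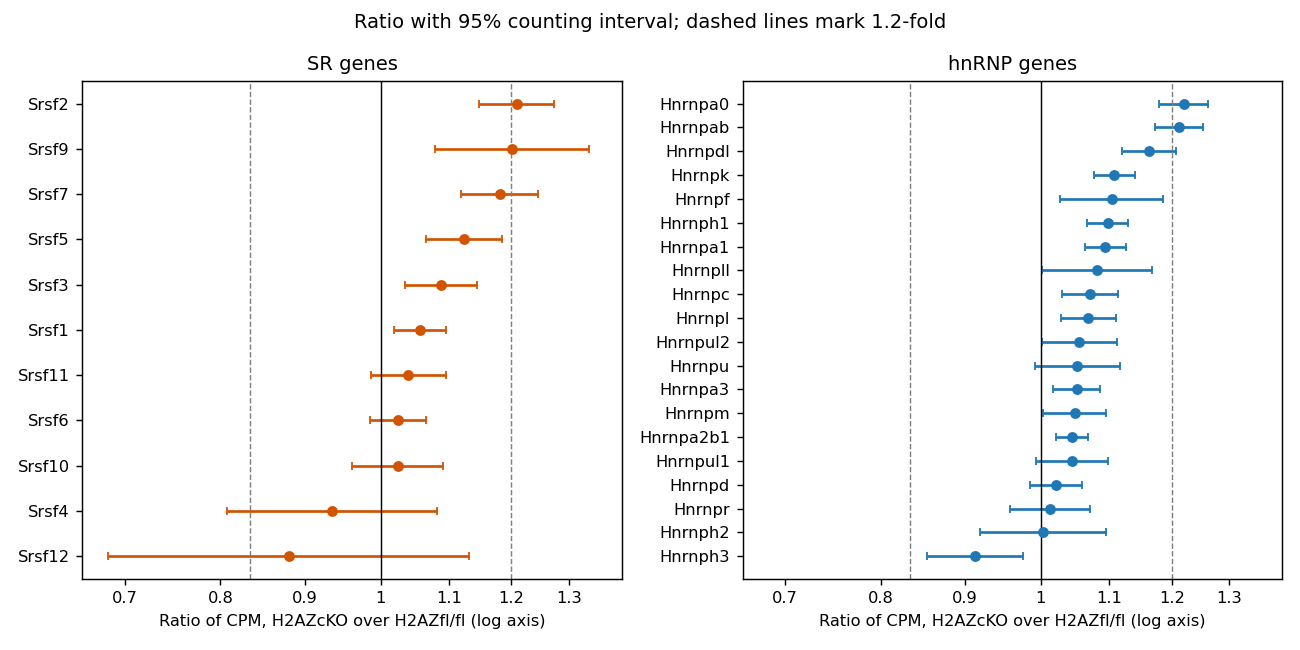
Ratio of CPM, H2AZcKO over H2AZfl/fl, on a log axis for each SR gene (left) and hnRNP gene (right), with 95% counting intervals; the solid line marks 1 and the dashed lines 1.2-fold in either direction. Srsf2, Hnrnpa0 and Hnrnpab lie at 1.21 to 1.22, and Hnrnph3 is the only gene whose interval ends below 1.

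The hnRNP A genes, whose proteins bind UAG motifs and silence exons, were all above 1, with Hnrnpa0 apart from the rest. hnRNP A0 is known as a binding protein of AU-rich elements in mRNAs of inflammation genes. Hnrnpa0 (ENSMUSG00000007836, chr13:58125879-58128556), a gene of 1 exon, was at 810 CPM in H2AZcKO against 664 CPM in H2AZfl/fl, a ratio of 1.22 (1.18 to 1.26), the highest of the 31. Hnrnpa1 (chr15:103240432-103244955) was at 1169 CPM in H2AZcKO against 1069 CPM in H2AZfl/fl, a ratio of 1.09 (1.06 to 1.13). Hnrnpa3 (chr2:75659261-75669407) was at 831 CPM in H2AZcKO against 791 CPM in H2AZfl/fl, a ratio of 1.05 (1.02 to 1.09). Hnrnpa2b1 (chr6:51460932-51469894), whose protein also sorts mRNAs and small RNAs, was at 1884 CPM in H2AZcKO against 1804 CPM in H2AZfl/fl, a ratio of 1.04 (1.02 to 1.07). The ratio of Hnrnpa0 exceeded that of each relative, by 1.12 for Hnrnpa1 (1.07 to 1.17), 1.16 for Hnrnpa3 (1.11 to 1.22) and 1.17 for Hnrnpa2b1 (1.12 to 1.22).

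Reads of some of these genes can be shared with near-identical copies. Of the 31 members 10 have at least 1 other gene in GENCODE M21 with 95% identity over 300 bases or more, most of all Hnrnpa3 with 27 and Hnrnpa1 with 9. The 12 copies of Hnrnpa3 in the table held 34 counts in H2AZcKO against 22 in H2AZfl/fl, and the 5 copies of Hnrnpa1 37 against 29. The largest was the single copy of Hnrnpc, with 183 counts in each library. The treatment of reads with several matches was not given in the sources used here. Hnrnpa0, Hnrnpab and Srsf2 have no such copy.

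The hnRNP D-like genes encode relatives with a pair of RNA recognition motifs, among them AUF1 (hnRNP D), which binds AU-rich elements and acts in mRNA decay. Hnrnpab (ENSMUSG00000020358, chr11:51600100-51606847), whose protein binds mRNA trafficking elements in neural cells, was at 846 CPM in H2AZcKO against 698 CPM in H2AZfl/fl, a ratio of 1.21 (1.17 to 1.25). Hnrnpdl (chr5:100033577-100039664) was at 672 CPM in H2AZcKO against 578 CPM in H2AZfl/fl, a ratio of 1.16 (1.12 to 1.21). Hnrnpd (chr5:99955935-99978938) was at 665 CPM in H2AZcKO against 651 CPM in H2AZfl/fl, a ratio of 1.02 (0.985 to 1.06). Hnrnpd therefore stayed behind its relatives: Hnrnpab was at 1.19 times its ratio (1.13 to 1.25) and Hnrnpdl at 1.14 times (1.08 to 1.199), although Hnrnpd and Hnrnpdl lie 54.6 kb apart on the same strand of chromosome 5. Hnrnpab overlaps Phykpl on the opposite strand, which had 189 counts in H2AZcKO against 216 in H2AZfl/fl.

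The hnRNP F and H proteins bind runs of G and steer exon inclusion near such runs. Hnrnph1 (chr11:50376990-50386528) was at 1153 CPM in H2AZcKO against 1051 CPM in H2AZfl/fl, a ratio of 1.097 (1.07 to 1.13). Hnrnpf (chr6:117900324-117925622) was at 178 CPM in H2AZcKO against 162 CPM in H2AZfl/fl, a ratio of 1.103 (1.03 to 1.19). Hnrnph2 lies on the X chromosome, and at 116 CPM in H2AZcKO against 115 CPM in H2AZfl/fl its ratio was 1.003 (0.919 to 1.09). Hnrnph3 (ENSMUSG00000020069, chr10:63014664-63024217) was the 1 hnRNP gene below 1, at 186 CPM in H2AZcKO against 204 CPM in H2AZfl/fl, a ratio of 0.912 (0.853 to 0.976). Hnrnph1 was at 1.203 times the ratio of Hnrnph3 (1.12 to 1.29) and Hnrnpf at 1.21 times (1.097 to 1.33). Hnrnph3 overlaps Rufy2 on the opposite strand, with 567 counts in H2AZcKO against 531 in H2AZfl/fl beside its own 1619 in H2AZcKO and 1836 in H2AZfl/fl, and the part of Rufy2 reads in its count was not tested.

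The other hnRNP genes were above 1 by small amounts. Hnrnpk (chr13:58391142-58403343), whose protein binds C-rich RNA and DNA through K-homology domains, was at 1137 CPM in H2AZcKO against 1026 CPM in H2AZfl/fl, a ratio of 1.11 (1.08 to 1.14). Hnrnpc (chr14:52073380-52104028), whose protein binds uridine tracts and keeps cryptic exons out of mRNA in human cells, was at 599 CPM in H2AZcKO against 559 CPM in H2AZfl/fl, a ratio of 1.07 (1.03 to 1.11). Hnrnpm (chr17:33646233-33686860), whose protein binds GU-rich motifs, was at 467 CPM in H2AZcKO against 446 CPM in H2AZfl/fl, a ratio of 1.05 (1.003 to 1.09). Hnrnpm overlaps March2 on its own strand, with 342 counts in H2AZcKO against 325 in H2AZfl/fl. Hnrnpr (chr4:136310942-136359447), related to Syncrip and known for a role in motor axons, was at 285 CPM in H2AZcKO against 282 CPM in H2AZfl/fl, a ratio of 1.01 (0.958 to 1.07).

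The ratios of the hnRNP L genes and of the hnRNP U genes lay close together within each subfamily. hnRNP L and its relative hnRNP LL bind CA repeats. Hnrnpl was at 609 CPM in H2AZcKO against 570 CPM in H2AZfl/fl, a ratio of 1.07 (1.03 to 1.11), and Hnrnpll at 157 against 145 CPM, a ratio of 1.08 (1.002 to 1.17). hnRNP U, or scaffold attachment factor A, binds chromatin-associated RNA including Xist. Hnrnpu was at 255 CPM in H2AZcKO against 242 CPM in H2AZfl/fl, Hnrnpul1 at 364 against 349 CPM and Hnrnpul2 at 324 against 307 CPM. Their ratios were 1.05 (0.991 to 1.12), 1.04 (0.994 to 1.097) and 1.06 (1.001 to 1.11). Within the hnRNP L and U subfamilies no pair of genes differed beyond its interval. The intervals of Hnrnpll, Hnrnpul2 and Hnrnpm are counted as above 1 although their lower bounds almost touch it.

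Over all subfamilies 25 pairs of relatives were compared, and the interval of the ratio between their ratios excluded 1 in 12. These were 4 of 6 pairs among the hnRNP A genes, 2 of 3 among the hnRNP D-like genes, 2 of 6 among the F and H genes and 4 of 6 SR pairs. The intervals were not adjusted for the number of pairs and cover counting error only. No share over pairs of unrelated genes of like depth was computed, so 12 of 25 is not shown to be particular to relatives. Many of the pairs share a gene and are not independent.

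Per length of the longest coding transcript, the 6 most abundant members were hnRNP genes and the least abundant was Srsf12. Hnrnpa2b1 stood at 1090 CPM per kb in H2AZcKO against 1044 CPM per kb in H2AZfl/fl. Hnrnpa1 followed with 610 against 557 CPM per kb and Hnrnph1 with 475 against 433 CPM per kb. Hnrnpr, whose longest coding transcript has 21452 bases, was also low. At the low end Srsf12 was at 4.68 CPM per kb in H2AZcKO against 5.32 in H2AZfl/fl, Hnrnpr at 13.3 against 13.1 and Srsf4 at 18.1 against 19.4. The order of the 6 highest members was the same in both libraries: Hnrnpa2b1, Hnrnpa1, Hnrnph1, Hnrnpk, Hnrnpab and Hnrnpa0. The SR gene with the highest level per length was Srsf5, at 212 CPM per kb in H2AZcKO against 189 in H2AZfl/fl. The median level was 140 CPM per kb over hnRNP genes in H2AZcKO against 133 in H2AZfl/fl. Over SR genes it was 128 in H2AZcKO against 118 in H2AZfl/fl. The order depends on the length used: over all annotated exons together, Hnrnpa1 ranked first at 371 CPM per kb in H2AZcKO and Hnrnpa2b1 had rank 4 at 286. In H2AZfl/fl Hnrnpa1 was also first, at 339 CPM per kb, and Hnrnpa2b1 had rank 2 at 274, so with this length the order differed between the libraries.

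**Figure D3:**
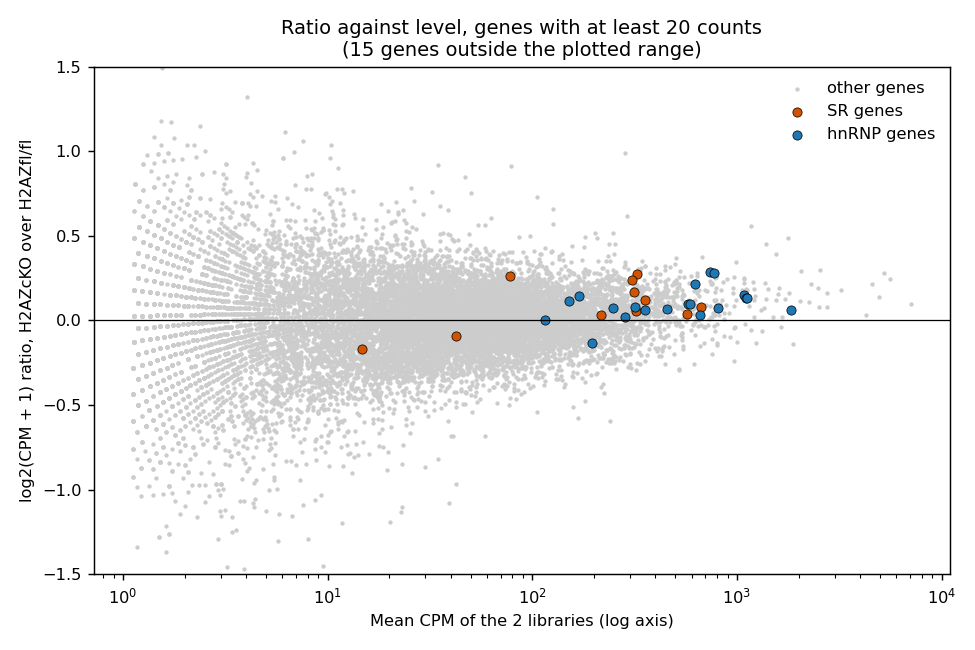
log2(CPM + 1) ratio, H2AZcKO over H2AZfl/fl, against the mean CPM of both libraries on a log axis for all genes with at least 20 counts (grey), SR genes (orange) and hnRNP genes (blue). The members sit on the abundant side, most of them slightly above 0 and none beyond 0.29, and 15 genes lie outside the plotted range.

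The members with the highest ratios were compact genes. The 7 highest, Hnrnpa0, Hnrnpab, Srsf2, Srsf9, Srsf7, Hnrnpdl and Srsf5, all had a ratio of at least 1.12 and span 2.7 to 7.2 kb from start to end. The 11 members that span at most 7.2 kb had a median ratio of 1.16 (range 1.003 to 1.22) and the 20 longer ones a median of 1.05 (range 0.880 to 1.11). The members within this span that did not follow were Srsf6, Srsf1, Hnrnph2 and Hnrnpa1, at 1.003 to 1.09. The span at which members were divided was taken from these 7 genes after their values were seen, so the split is a description.

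Compactness went with higher ratios in the whole table too. Of the 2938 genes that span no more than that length 18.7% were 1.2-fold higher, against 8.42% of the 11066 longer genes, and the median log2 ratios were 0.06 and -0.00524. Spearman's rho between span and log2 ratio was -0.50 over the 31 members and -0.15 over 14004 genes. Between the length of the mature transcript and log2 ratio it was -0.47 over members and -0.29 over 13968 genes with annotation. These genes share libraries and depth and are not independent points, so the correlations describe these 2 columns and carry no p.

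The members lay closer to all other genes once a joint trend that holds transcript length, but not span, was taken out. When the joint trend of log2 ratios on GC content, level and transcript length over all genes was removed, 16 of 31 members stayed above 0, 4 SR and 12 hnRNP genes, against 51.7% of all genes. The median of SR genes was then -0.02 and that of hnRNP genes 0.04, against 0.00800 over all genes. The highest log2 ratio was then that of Hnrnpr, at 0.23 in place of 0.02. Its transcript of 21452 bases is far longer than the next among members (7640 bases, Hnrnpu) and the median of 3178.5 over all genes. The value of Hnrnpr thus rests on the fit at a length far from that of most genes. Hnrnpa0 kept a log2 ratio of 0.21, Hnrnpab 0.16, Srsf2 0.16, Srsf9 0.15 and Hnrnpdl 0.11. The log2 ratio of Hnrnpa2b1 was -0.20 without the trend and 0.06 with it, that of Hnrnpa1 -0.07 and 0.13, and that of Hnrnph1 -0.03 and 0.13. Hnrnph3 was further below 0 without the trend, at -0.24 in place of -0.13. With the trend taken out no member was past 1.2-fold in either direction.

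**Figure D4:**
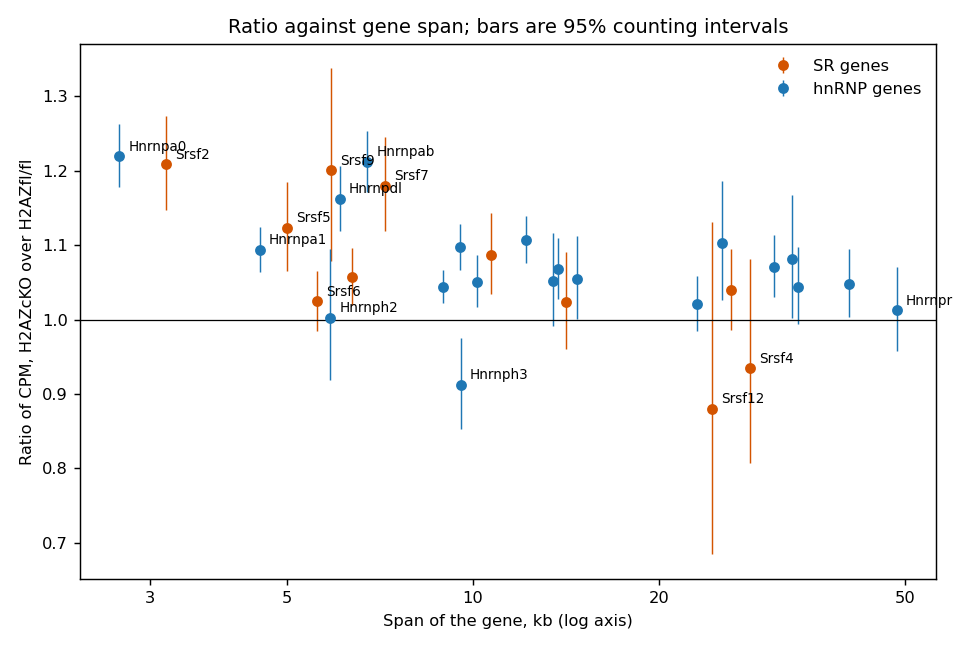
Ratio of CPM, H2AZcKO over H2AZfl/fl, against the span of the gene in kb on a log axis, with 95% counting intervals, SR genes in orange and hnRNP genes in blue. The 7 genes with ratios of 1.12 and above all lie at 7.2 kb or less, and longer genes scatter between 0.880 and 1.11.

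Promoters of the members were richer in G and C at the median than those of all protein-coding genes, expressed here or not. RefSeq promoters were matched for 29 members, all except Hnrnpll and Hnrnpul2. Members were given the RefSeq start nearest to the deposited gene start, and each background gene its first listed start. The background was not limited to expressed genes, so the part of expression in the differences below was not tested. In the 250 bases upstream of the start, the content of G and C ran from 46% to 81.2% with a median of 65.2%, against a median of 55.2% for 17491 protein-coding genes. A GC box, searched as GGGCGG on both strands, was present in 23 of 29 (79.3%), 10 SR and 13 hnRNP genes, against 42.7% of all promoters. CCAAT on either strand was present in 15 (51.7%), 3 SR and 12 hnRNP genes, against 36.3%. TATAAA was present in 3 (Hnrnpm, Srsf2 and Srsf3), or 10.3% against 12.4%. The palindrome TGACGTCA was in none of the 29 windows, against 2.01% of all, and CTCGCGAG in 1 window, that of Srsf4, against 1.06%. A GC box match is more likely in a window rich in G and C, and a letter match is not a shown binding site.

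Gene counts sum productive and nonproductive transcripts, so they do not show splicing itself. In GENCODE M21, 24 of the 31 members have at least 1 transcript annotated as a target of nonsense-mediated decay or as a retained intron, 9 SR and 15 hnRNP genes. Transcripts marked for decay occur in 19 members and retained introns in 22. The same shares over all genes were not computed, so these counts are not shown to be particular to the members. Hnrnpk has the most annotated transcripts, 34, of which 3 are decay targets and 13 retained introns. Hnrnpa0 has 1 transcript and 1 exon, so no alternative isoform is annotated for the gene with the highest ratio. Whether isoform use differed between the genotypes was not analysed here.

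By the protein family entries of the deposited annotation, 21 members carry a canonical RNA recognition motif (RRM_1): all 11 SR genes and 10 hnRNP genes, including the A, D-like, C, M and R genes. The hnRNP F, H1 and H2 genes are annotated with the RNPHF zinc finger and the 3 hnRNP U genes with an ATPase-type domain. Higher and lower ratios occurred among genes with the same entry, from 0.880 for Srsf12 to 1.22 for Hnrnpa0 among genes with RRM_1.

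In the authors' deposited table, which compares the same pair of columns by an unnamed test, 11 members had an adjusted p under 0.05. By the authors' deposited table these were 4 SR genes, all higher, and 7 hnRNP genes, 6 higher and 1, Hnrnph3, lower. The authors' deposited table gives the smallest adjusted p for Hnrnpa0 (7.78e-20) and 0.00729 for Hnrnph3. Of all 19202 genes of the authors' deposited table, 9.55% had an adjusted p under 0.05, and 172 genes were marked significant there, none of them a member. Such p-values come from 1 column per genotype and hold no spread between embryos.

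Other genes of the splicing pathway differed by group. Among 19 relatives of the hnRNPs under other symbols 11 had an interval above 1 and none had one below, and the median log2 ratio was 0.13. Over all genes these shares were 12.9% and 11.3%, and over genes with at least 1000 counts 24.3% and 15.3%. Intervals narrow with depth, and the lists differ in it. Median summed counts were 6024 for these relatives, 3429 for SR-related, 1672.5 for snRNP and 2659 for SF3 and U2AF genes. Cirbp, a cold-inducible RNA-binding protein gene, was the 1 gene of this list past 1.2-fold, at 236 CPM in H2AZcKO against 195 CPM in H2AZfl/fl, a ratio of 1.21 (1.14 to 1.29). Rbmx, the X-linked gene of hnRNP G, was at a ratio of 1.18 (1.12 to 1.23), Matr3, which encodes the nuclear matrix protein matrin, at 1.17 (1.12 to 1.22) and Ralyl at 1.16 (0.949 to 1.42). Of the 19 relatives 17 had a log2 ratio above 0 and 2 below.

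SR-related proteins and the enzymes that serve SR proteins did not follow before the joint trend was taken out. Of 23 SR-related genes 5 had an interval above 1 and 7 below, against 12.9% and 11.3% of all genes. The median log2 ratio was -0.00764. With the trend taken out the median was -0.01 for SR-related genes and -0.04 for kinases and importers of SR proteins. For SR genes it was then -0.02, so SR-related genes no longer lay below that class, while hnRNP relatives under other symbols kept 0.08. Tra2b, a splicing activator with arginine and serine repeats, was at 303 CPM in H2AZcKO against 256 CPM in H2AZfl/fl, a ratio of 1.19 (1.12 to 1.26). Srrm2, a scaffold of nuclear speckles, was at 887 CPM in H2AZcKO against 1048 CPM in H2AZfl/fl, a ratio of 0.846 (0.821 to 0.872). Srek1ip1 was the 1 gene of the list lower by 1.2-fold, at 0.775 (0.641 to 0.936), and Scaf8 was at 0.842 (0.758 to 0.936). Among 11 tested kinases and importers of SR proteins none passed 1.2-fold, and 1 had an interval that excluded 1, the kinase gene Prpf4b at 0.863 (0.786 to 0.946). Tnpo2 and Tnpo1, genes of transportins that carry hnRNPs into the nucleus, were at 0.924 (0.853 to 1.001) and 0.942 (0.882 to 1.01), and the SR protein kinase gene Srpk2 at 1.05 (0.972 to 1.14).

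Core spliceosome genes were between these groups. Of 40 snRNP protein genes 11 had an interval above 1 and 2 below, against 12.9% and 11.3% of all genes. Over genes with at least 1000 counts these shares were 24.3% and 15.3%. The median log2 ratio of the snRNP genes was 0.10. Past 1.2-fold were 3, all higher, against 10.6% of all genes and 4.11% of genes with at least 1000 counts. These were Snrnp35, of the minor spliceosome, at 1.37 (1.09 to 1.72), Lsm3 at 1.25 (1.11 to 1.41) and Lsm7 at 1.23 (1.01 to 1.49). Snrpa1 followed at 1.17 (1.05 to 1.31). Of 18 splice site factors of the SF3 and U2AF group 6 had an interval above 1 and 2 below, beside the same background shares, with a median of 0.02. U2af1, which encodes the subunit that reads the AG of the 3′ splice site, was at 117 CPM in H2AZcKO against 96.3 CPM in H2AZfl/fl, a ratio of 1.21 (1.11 to 1.33). Zrsr1 was at 1.202 (0.959 to 1.51), Sf3b5 at 1.15 (1.03 to 1.28) and Puf60 at 1.14 (1.08 to 1.205).

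Factors of nonsense-mediated decay and the exon junction, through which many SR and hnRNP transcripts are limited, had ratios on both sides of 1. Of 15 genes 3 were higher and 2 lower by 1.2-fold, against 10.6% and 12.3% of all genes, and the median log2 ratio was 0.05. Over genes with at least 1000 counts these shares were 4.11% and 3.1%, and the list had a median of 1617 summed counts. The interval lay above 1 for 3 genes and below 1 for 4, against 12.9% and 11.3% of all genes. Over genes with at least 1000 counts 24.3% of intervals lay above 1 and 15.3% below. Lower were the kinase gene Smg1, at 98.6 CPM in H2AZcKO against 129 CPM in H2AZfl/fl with a ratio of 0.767 (0.701 to 0.838), and Upf2 at 0.795 (0.697 to 0.906). Upf3a was higher at 1.298 (1.15 to 1.47) and Magohb stood at 1.24 (0.968 to 1.603). Smg1 has a long transcript, and its log2 ratio of -0.38 was -0.18 once that joint trend was taken out.

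**Figure D5:**
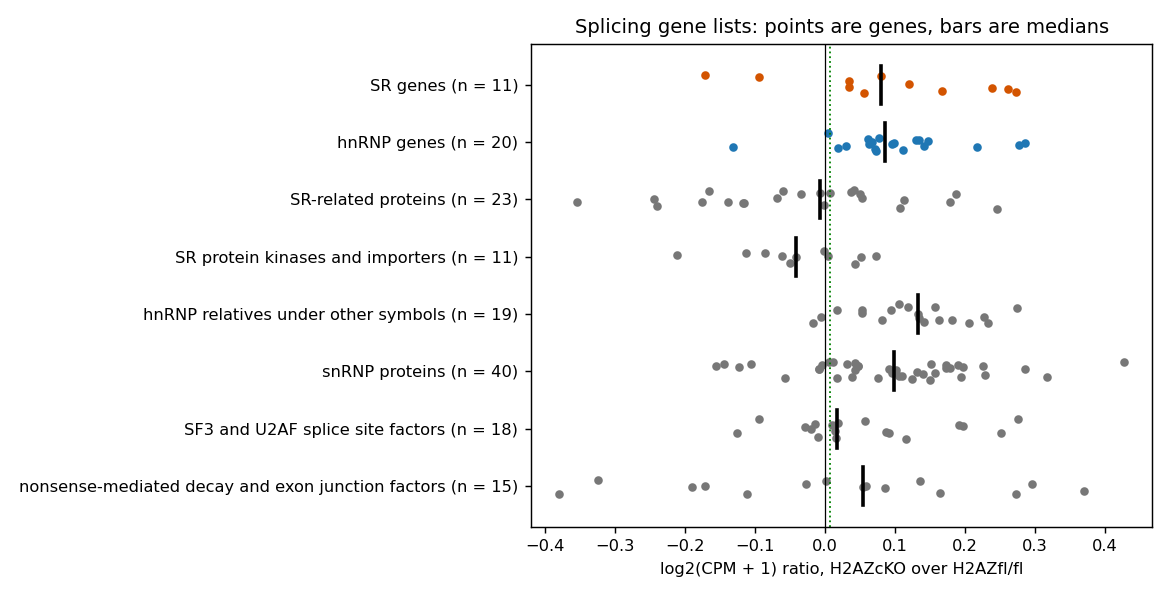
log2(CPM + 1) ratio, H2AZcKO over H2AZfl/fl, of each gene (points) in the SR and hnRNP classes and 6 related lists, with the median of each list as a bar, a solid line at 0 and a dotted line at the median of all genes. The hnRNP relatives have the highest median (0.13), and SR-related proteins (-0.00764) and SR protein kinases and importers (-0.04) lie below the median of all genes.

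Markers of dividing cells moved in the same direction as the members. Of 10 genes of dividing cells 8 had an interval above 1 and none below, and their summed level was 2363 CPM in H2AZcKO against 2124 CPM in H2AZfl/fl. Over all genes 12.9% of intervals lay above 1 and 11.3% below, and over genes with at least 1000 counts 24.3% and 15.3%. Of 8 genes of neural progenitors 6 had an interval above 1, with 2744 CPM in H2AZcKO against 2497 CPM in H2AZfl/fl. Of 8 genes of young neurons 1 was above and 4 below, with 5547 against 5517 CPM. Their median log2 ratio was -0.05, and the sum holds Tubb3 at 2336 CPM in H2AZcKO against 2165 CPM in H2AZfl/fl. The 10 tested markers of diencephalon and hypothalamus summed to 43.7 CPM in H2AZcKO against 94.6 CPM in H2AZfl/fl. Of these 7 had an interval below 1, among them Nkx2-4 with 0 counts in H2AZcKO against 25 in H2AZfl/fl. For the other 3, Fezf1, Pou4f1 and Irx3, the interval held 1. Erythroid markers summed to 690 CPM in H2AZcKO against 364 CPM in H2AZfl/fl, with 8 of 8 tested genes higher. Macrophage markers summed to 48.5 CPM in H2AZcKO against 34.5 CPM in H2AZfl/fl. Of 9 tested macrophage genes 3 had an interval above 1, and for 6 the interval held 1. Their counts were low, with a median of 92 summed counts. Whether these marker differences bear on the ratios of SR and hnRNP genes was not tested. In bulk tissue fewer cells of a type and less RNA per cell cannot be told apart.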

How the data were processed

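Per the labels' protocols, Trizol extracts of total RNA went into an Illumina TruSeq library kit. The submitters' processing notes name HTSeq 0.6.0, TopHat2 2.0.12, Bowtie2 2.2.3 and the build mm9, without their roles. The gene positions as deposited instead overlap GENCODE M21 (GRCm38) for almost all genes, and 25 of 31 members have identical positions. The deposited counts are whole reads per Ensembl identifier, with 1 column per genotype. The column headed WT per the file headers was taken as H2AZfl/fl, the only other genotype. The authors' CPM, their fold change (a ratio of those CPM values), its log2 and the authors' p-value are also deposited, and the sources used here do not name the test behind them.

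Counts were scaled with TMM factors of 0.986 (H2AZcKO) and 1.01 (H2AZfl/fl) from edgeR 4.0.16 in R 4.3.3. DESeq2 1.42.0 gave the size factors of an alternative. Symbols were matched by identifier for 19112 genes. Log2 ratios use CPM plus 1, which shrinks the difference of genes with few reads. Further steps used Python 3.11.15 with pandas 2.3.3 and scipy 1.17.1, and copies were found with blastn 2.17.0. The scripts were tested on simulated data. The interval of a ratio between 2 ratios was taken on the log scale from the 4 counts.

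Members and gene lists were chosen with earlier results of these data known. All members are named, in each related list up to 4 genes with the largest absolute log2 ratio, and H2afz and marker genes where their list is described. The alternatives were pseudocounts of 0.1 and 5 CPM, other scalings, other floors, folds of 1.1 and 1.5, protein-coding genes alone, leaving out chromosomes X and Y, and removal of the length, GC and level trend. Chosen after seeing the data were scaling without mitochondrially encoded genes, genes with at least 1000 summed counts, length over all annotated exons, and the SR class without Srsf4 and Srsf12.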

Additional observations from a re-analysis of the deposited data

How the results depend on the processing

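No paired analysis was possible because each genotype has 1 count column. For the same reason no replicate could be left out, and no value here has a replicate check. The number of SR genes 1.2-fold higher in H2AZcKO, 1 as reported, was 2 with a pseudocount of 0.1 CPM, 4 at a fold of 1.1 and 0 at 1.5. It was also 0 with DESeq2 size factors, total counts, the deposited CPM, total counts without mitochondrially encoded genes, and the length, GC and level trend removed. At a fold of 1.1, 1 SR gene was lower. The number of hnRNP genes 1.2-fold higher, 2 as reported, was 1 with DESeq2 factors, 5 at a fold of 1.1 and 0 at 1.5, with total counts, the deposited CPM, total counts without mitochondrially encoded genes, and the trend removed. The 3 genes past 1.2-fold thus lie so near the threshold that the scaling decides them. The median of SR genes turned from 0.08 to -0.0222 with the trend removed, while the median difference between the classes was -0.06 with the trend removed and 0.03 without Srsf4 and Srsf12; the cause was not tested. Under trend removal 8 members with an interval above 1 turned below 0: Hnrnpk to -0.00998, Hnrnph1 to -0.0283, Hnrnpa1 to -0.0693, Hnrnpc to -0.0377, Hnrnpa2b1 to -0.195, Hnrnpa3 to -0.0221, Srsf5 to -0.00434 and Srsf3 to -0.0399. By sign, 14 members were above 0 in each setting, 3 below 0 in each setting (Srsf4, Srsf12 and Hnrnph3), and 14 changed sign in at least 1. Pseudocounts, floors and gene subsets cannot change the sign of a member's ratio, so only the scalings and the trend removal could. Over all genes 1482 were 1.2-fold higher and 1727 lower. These were 768 and 896 with a pseudocount of 5 CPM, 966 and 1087 with a floor of 5 CPM, 3470 and 3461 at a fold of 1.1, 215 and 343 at 1.5, 192 and 145 among genes with at least 1000 counts, and 2276 higher with no floor. At 1.5-fold, 215 higher and 343 lower as reported became 433 and 594 with a pseudocount of 0.1 CPM, 29 and 59 with 5 CPM, 356 and 546 with no floor, 90 and 161 with a floor of 5 CPM, and 7 and 2 among genes with at least 1000 counts. Protein-coding genes alone and leaving out chromosomes X and Y moved none of these counts by over 1.5 times. Depth limits Srsf12 and Srsf4 most among the members.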

Other observations

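Several members are neighbours in the genome, by the deposited positions. Hnrnpll and Srsf7 lie 137.8 kb apart on the minus strand of chromosome 17, with ratios of 1.08 and 1.18. Hnrnpa0 and Hnrnpk lie 262.6 kb apart on the minus strand of chromosome 13, with ratios of 1.22 and 1.11, and Srsf10 and Hnrnpr lie 441 kb apart on the plus strand of chromosome 4, with ratios of 1.02 and 1.01. The paralog of the targeted gene, H2afv, was at 316 CPM in H2AZcKO against 252 CPM in H2AZfl/fl, a ratio of 1.25 (1.19 to 1.33), slightly above the highest ratio among the members. Setd2, the H3K36 methyltransferase named in the study's title, was at 133 CPM in H2AZcKO against 149 CPM in H2AZfl/fl, a ratio of 0.894 (0.826 to 0.968). The polypyrimidine tract proteins, which act with hnRNP L on shared exons and switch from Ptbp1 to Ptbp2 as neurons form, had genes with similar ratios: 1.103 (1.05 to 1.16) for Ptbp1 and 1.09 (1.03 to 1.14) for Ptbp2.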
